A study of Homo sapiens with 12 samples.

Results

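The cytosolic ribosomal protein genes encode the protein subunits of the ribosome that translates nuclear messages. They were chosen by gene symbol alone (RPL or RPS names of subunits and of their paralogs, plus RPSA), which gave 85 of the 60656 gene IDs in the count table. Of these, 53 are named for the large subunit and 32 for the small subunit, and all 85 are annotated as protein-coding. The same symbols leave out pseudogenes, S6 kinases and the 78 mitochondrial ribosomal protein genes. The muscle paralog RPL3L, with at most 6 counts in a library, and the testis paralog RPL10L, with at most 1, fell under the filter on low counts, so that 83 members were tested.

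The counts came from RNA sequencing of 3 established human lines labelled metastatic melanoma. A2058, A375 and SKMEL-5 were each grown in hypoxia (1% oxygen) and in normoxia (atmospheric oxygen), with 2 libraries per line and condition, 12 in all. No genotype change, drug or exposure time is given in the labels, and the design text calls the pairs biological duplicates. If they did not come from separate cultures, p-values measure only the spread between these libraries.

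A ribosome needs its proteins in nearly equal numbers, and most of them have no other place to go in a cell. Most of their messages begin with a run of C and T bases at the very 5′ end, the terminal oligopyrimidine (TOP) motif, as do those of several translation factors. Translation of TOP messages is switched by the nutrient-sensing kinase complex mTORC1 through the RNA-binding protein LARP1, so that their RNA level and their protein output can part. A few subunits have a second gene, a paralog such as RPL22L1 or RPS27L, with its own expression pattern.

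Windows of 30 bases around annotated transcription starts show C/T runs near the starts of subunits and of paralogs. The longest run was taken anywhere in the window, so it need not begin at the start as a TOP motif does. They come from RefSeq promoter records (GRCh38.p14), which matched 68 of the 85 members. Each runs 5′ to 3′ on the gene's strand, with 15 bases before the start and 15 from it, and the longest C/T run is in capitals. The first 7 are subunits whose values are described further on, and the last 5 are paralogs.
RPL13A (chr19:49487593-49487622, plus strand): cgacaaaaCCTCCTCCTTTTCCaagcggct
RPLP0 (chr12:120201097-120201126, minus strand): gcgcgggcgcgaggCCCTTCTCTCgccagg
RPL12 (chr9:127451392-127451421, minus strand): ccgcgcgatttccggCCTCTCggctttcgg
RPSA (chr3:39406705-39406734, plus strand): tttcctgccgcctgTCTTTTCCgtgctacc
RPS6 (chr9:19380222-19380251, minus strand): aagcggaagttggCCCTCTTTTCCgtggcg
RPS26 (chr12:56041903-56041932, plus strand): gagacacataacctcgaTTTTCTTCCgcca
RPL36A (chrX:101390996-101391025, plus strand): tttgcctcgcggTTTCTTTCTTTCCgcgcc
RPL36AL (chr14:49620612-49620641, minus strand): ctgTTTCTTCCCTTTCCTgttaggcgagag
RPL22L1 (chr3:170870181-170870210, minus strand): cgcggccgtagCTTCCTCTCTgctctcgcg
RPL26L1 (chr5:172958714-172958743, plus strand): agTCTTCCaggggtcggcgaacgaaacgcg
RPS27L (chr15:63157463-63157492, minus strand): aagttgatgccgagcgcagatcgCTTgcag
RPL7L1 (chr6:42879601-42879630, plus strand): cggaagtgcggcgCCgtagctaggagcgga

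The longest C/T run in such a window had a median of 10.5 bases over the 68 members and of 4 bases over all 27305 promoters. A run of at least 8 bases was present in 49 of the 68 members (72.1%), against 13.4% of all promoters. Without the paralogs it was present in 47 of 62 members, and among the paralogs in 2 of 6, RPL36AL and RPL22L1. The pentamer CTTTC on the gene's strand lay in 28 of the 68 windows (41.2%), against 4.18% of all, and CTTTT in 15 (22.1%), against 3.62%. Over the whole 300-base promoter and on both strands, CCGGAAG, a core bound by ETS factors, was found in 23 members (33.8%), against 10.7% of all promoters. The core of the hypoxia response element, ACGTG, was found in 20 members (29.4%), against 21.6% of all promoters. CACGTG, which contains ACGTG, was found in 4 members (5.88%), against 7.44%. These matches describe letters in a window, not factor binding.

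Libraries held between 33831569 and 54202819 counts, and a count of 0 allowed up to 0.0553 to 0.0887 CPM, the count scaled to a fixed library total. The neural crest factor SOX10 stood at 652 to 1469 CPM in all 12 libraries, but the pigment genes TYR and MLANA had 0 counts in every A375 and SKMEL-5 library. Libraries of those 2 names hardly differed: over both conditions, edgeR's quasi-likelihood test called 2 of 19636 genes in A375 minus SKMEL-5 (0.0102%). A result shared by the libraries labelled A375 and SKMEL-5 may therefore not come from independent lines. Summed fibroblast markers reached 11.1 to 90.6 CPM (all 7 had counts), keratinocyte markers 47.1 to 114 CPM (1 of 7 had none) and blood markers 0.650 to 15.8 CPM (all 8 had counts). In A2058 the fibroblast sum was 69.5 and 90.6 CPM in hypoxia, against 24.6 and 29.4 CPM in normoxia, and its part in the results was not tested. All 10 hypoxia response genes were above 0 in the mean of the 3 lines, with a list median of 2.57 on the log2 scale. The same test called 8 of them at an adjusted p under 0.05, against 1.12% of all genes. In earlier results over all genes, 1 hypoxic library of each line lay far from the rest, namely hypoxia 2 of A2058 and hypoxia 1 of both A375 and SKMEL-5. They are called the distant libraries here.

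Ribosomal protein messages took between 3.41 and 11.7% of all counts, a 3.43-fold range. In A2058 they took 5.60 and 7.53% in hypoxia (replicates 1 and 2 here and below), against 5.59 and 3.41% in normoxia. The share in A375 was 11.7 and 7.39% in hypoxia, against 6.65 and 4.61% in normoxia. SKMEL-5 libraries gave 9.68 and 8.48% in hypoxia, against 10.9 and 6.41% in normoxia. Hypoxic libraries lay above normoxic ones without overlap in A375 and, by a margin of 5.60 against 5.59% at its narrowest, in A2058, while in SKMEL-5 they overlapped. Group means were 6.56 ± 1.37% in hypoxic A2058 and 4.50 ± 1.54% in normoxic A2058 (SD, n = 2 each here and below). They were 9.54 ± 3.04% in hypoxic and 5.63 ± 1.44% in normoxic A375, and 9.08 ± 0.848% in hypoxic and 8.66 ± 3.19% in normoxic SKMEL-5. The 95% Wilson interval of each library's share was within 0.0097 percentage points, and it covers counting error only, so the spread lies between libraries and not in the counting. In bulk RNA, fewer cells of a type and less RNA per cell cannot be told apart.

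**Figure D1:**
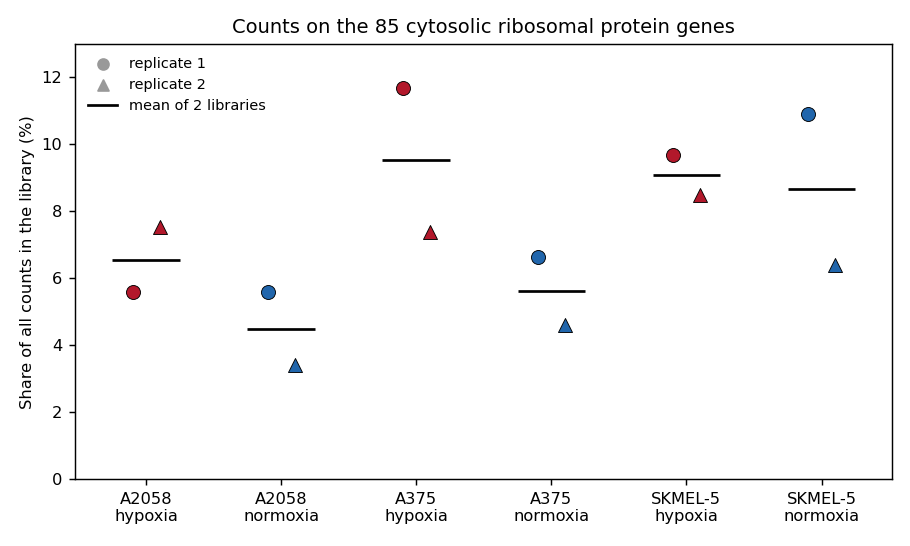
Share of all counts (%) on the 85 ribosomal protein genes in each library, by line, with hypoxia (red) left of normoxia (blue), circles for replicate 1, triangles for replicate 2 and black bars for the mean of 2 libraries. The highest share is A375 hypoxia 1 (11.7%) and the lowest A2058 normoxia 2 (3.41%), and the SKMEL-5 groups overlap.

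Mitochondrially encoded genes held 1.22 and 1.74% of counts in hypoxic A2058, against 20.1 and 7.64% in normoxic A2058. They held 3.32 and 0.648% in hypoxic A375, against 4.13 and 2.97% in normoxic A375, and 3.13 and 1.35% in hypoxic SKMEL-5, against 6.31 and 2.79% in normoxic SKMEL-5. With those counts left out of the total, the ribosomal protein share in A2058 was 5.67 and 7.66% in hypoxia, against 6.99 and 3.69% in normoxia, and the groups overlapped. In A375 it was 12.1 and 7.43% in hypoxia, against 6.93 and 4.76% in normoxia, and the groups stayed apart. The ratio of small-subunit to large-subunit counts ran from 0.536 (A2058 normoxia 2) to 0.754 (SKMEL-5 normoxia 1).

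The members moved as a block from library to library, also between replicates of the same group. Replicate 2 lay above replicate 1 in 78 of 83 members in hypoxic A2058, by a median of 0.75 on the log2 CPM scale. In hypoxic A375 replicate 2 lay below replicate 1 in 79 members, with a median difference of -0.95, and in hypoxic SKMEL-5 in 51 members, with a median difference of -0.16. In normoxia replicate 2 was below replicate 1 in all 3 lines, with medians of -0.90 in A2058 (79 members), -0.38 in A375 (76 members) and -0.71 in SKMEL-5 (78 members). Over all genes the same medians lay between -0.04 and 0.08. In A2058 and SKMEL-5 the order of a hypoxic and a normoxic library depended on which of the replicates was taken, whereas in A375 the member median was above 0 in all 4 pairs. The 4 pairs of a hypoxic with a normoxic library had member medians of -0.23 to 1.47 in A2058, 0.34 to 1.70 in A375 and -0.35 to 0.55 in SKMEL-5.

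The correlation of each member with the summed level of the group was taken over 12 libraries on log2 CPM with line means removed. These libraries share their scaling. Each member is also part of the sum, which favours members over other genes, so the correlation is a description. The median r of the members was 0.95, and 57 of 83 had an r of at least 0.9, against 2.30% of the 7711 other genes of at least 20 CPM. Apart from members, the genes most like the group were RNF181, a ubiquitin ligase gene (r = 0.987), the initiation factor subunit gene EIF3E (0.986), BTF3 of the nascent chain-associated complex (0.985), COX7A2L of the respiratory chain (0.980) and the sorting nexin gene SNX3 (0.977). Of these, EIF3E and BTF3 are TOP messages. There were 6 members with an r below 0.5, among them the paralogs RPL7L1 (-0.81), RPL26L1 (0.08) and RPL22L1 (0.40), as well as RPL36A (-0.29) and RPS26 (0.12).

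**Figure D2:**
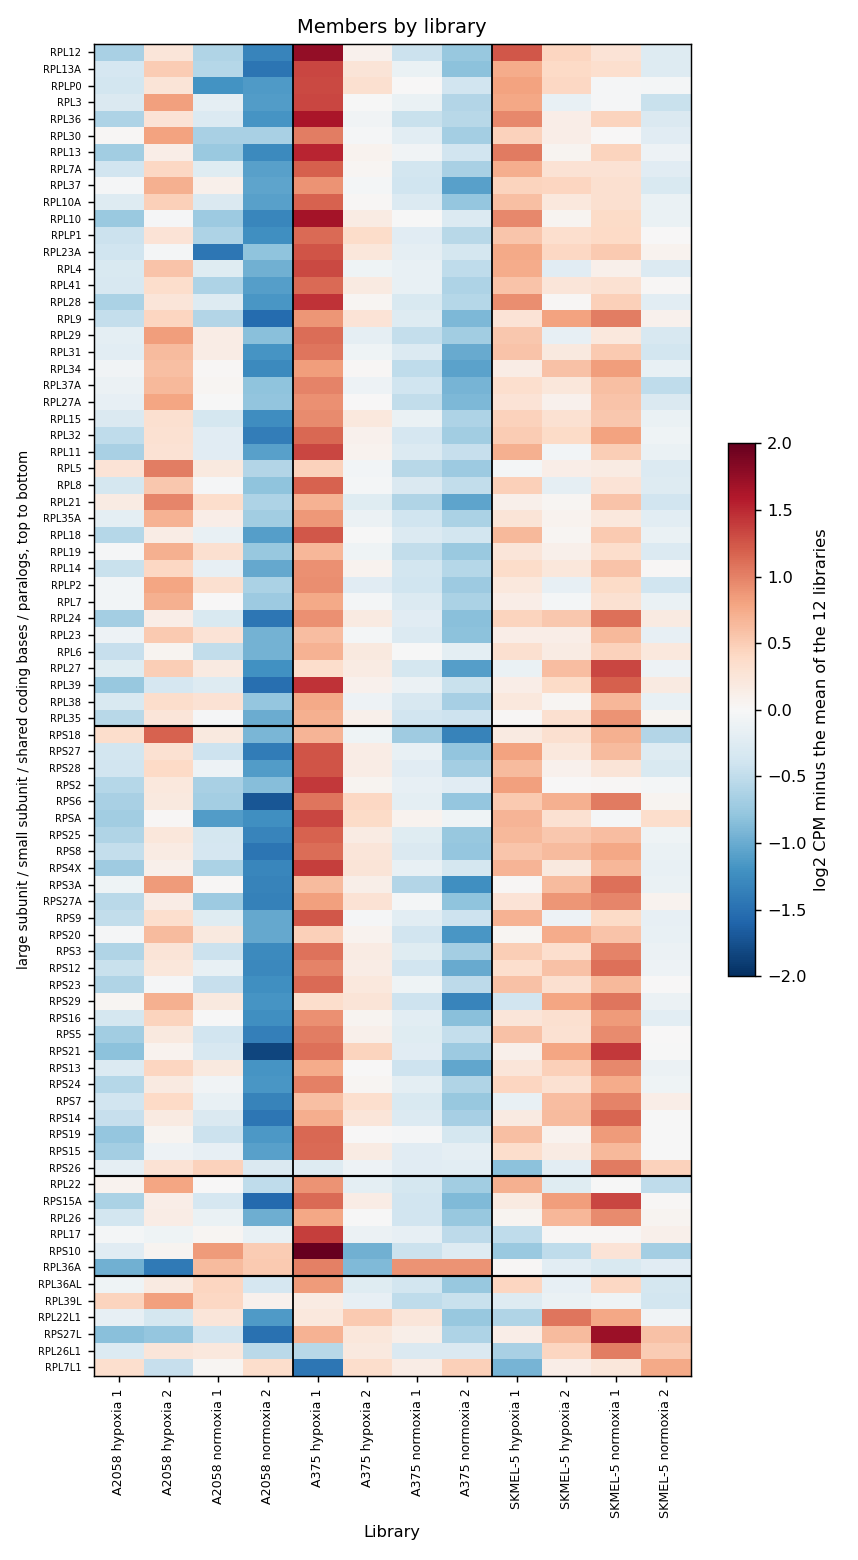
Log2 CPM of tested members (rows) in each library (columns, hypoxia left of normoxia within a line), minus the member's mean over the 12 libraries, from -2 (blue) to 2 (red). Rows are the large subunit, the small subunit, members with shared coding bases and paralogs, each in order of the 3-line mean change. Columns such as A375 hypoxia 1 and A2058 normoxia 2 are high or low for nearly every subunit, while RPL36A and RPL7L1 differ from the rest.

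Across the 3 lines together, hypoxic libraries held more ribosomal protein RNA than normoxic ones on average, by a median of 0.60 on the log2 scale, but no member passed the test. In the mean of the 3 within-line differences, 0 of 83 members had an adjusted p under 0.05 in edgeR's quasi-likelihood test, where 1.12% of the 19636 tested genes did. At an unadjusted p under 0.05 there were 32 members (38.6%), against 19.0% of all genes. DESeq2 called 5 (6.02%), RPLP0, RPL12, RPL30, RPL13A and RPLP1, against 8.7% of the 17732 genes to which it gave an adjusted p, and limma-voom called 0, against 0.906% of all genes. The change was above 0 in 77 of 83 members, against 51.0% of all genes, whose median was 0.02. The median over the members was 0.19 with the 3 distant libraries left out and 0.40 without A375 hypoxia 1 alone. Without the low-count filter 12 of 85 members passed (14.1%), against 4.96% of 37389 genes. Without A375 hypoxia 2 there were 3 (3.61%), RPLP0, RPL12 and RPL30, against 5.36% of genes.

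The lines differed in these values, though the difference itself did not pass. A375 had the highest median, 1.09, with 81 of 83 members above 0, against 50.6% of all genes. A2058 followed with 0.62 and 76 members (50.1% of all genes), and SKMEL-5 had 0.05 and 46 members (49.6% of all genes). In each line 0 members were called by edgeR, DESeq2 or limma-voom, where edgeR called 0.0102% of all genes for A2058, 0.0% for A375 and 0.0% for SKMEL-5. For A375 DESeq2 called 0.617% of the 17351 genes to which it gave an adjusted p, and limma-voom called 0.0%. Their shares for A2058 and SKMEL-5 are not given here. At an unadjusted p under 0.05 edgeR gave 3 members in A2058 (9.16% of all genes), 31 in A375 (5.6% of all genes) and 1 in SKMEL-5 (6.53% of all genes). An F test that the 3 differences were equal called 0 members (0.0% of all genes), with 0 at an unadjusted p under 0.05 in edgeR (1.6% of all genes) and limma-voom and 1 in DESeq2. For limma-voom and DESeq2 the share of all genes in this comparison is not given here.

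Leaving out single libraries moved the medians of the lines. In A2058 the median was 0.96 without hypoxia 1, 0.19 without hypoxia 2, 1.14 without normoxia 1 and 0.22 without normoxia 2. In A375 it was 0.46 without hypoxia 1 and 0.90 to 1.49 without each of the others. The SKMEL-5 median changed sign with the library left out, at -0.04 without hypoxia 1, 0.08 without hypoxia 2, 0.54 without normoxia 1 and -0.25 without normoxia 2. Both hypoxic libraries lay above both normoxic ones for 76 of 83 members in A375 (91.6%), where 18.1% of all genes were so separated. In A2058 there were 21 such members (25.3%), against 20.5% of all genes, and in SKMEL-5 8 (9.64%), against 18.5%. In all 3 lines at once there were 4 (4.82%), among them RPLP0, RPL13A and RPL30, against 4.86% of all genes.

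**Figure D3:**
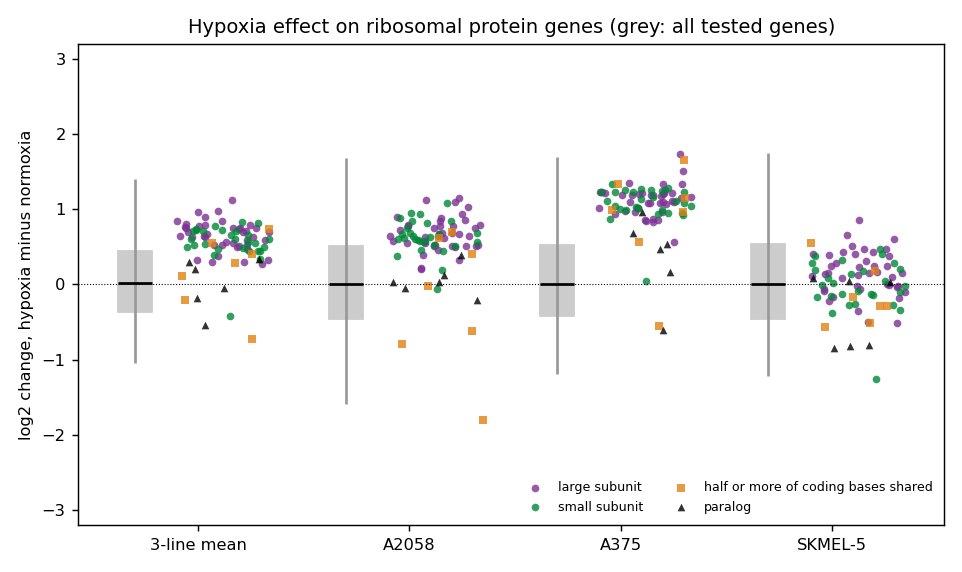
Log2 change, hypoxia minus normoxia, of each tested member (points, by class) in the mean of the 3 lines and in each line, beside all 19636 tested genes (grey box, 25th to 75th percentile; line, 5th to 95th; black bar, median). The members centre on 0.60 in the mean, 0.62 in A2058, 1.09 for A375 and 0.05 for SKMEL-5, and the lowest points are members with shared coding bases, paralogs and RPS26.

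The P-stalk of the large subunit, a flexible arm of RPLP0 with pairs of RPLP1 and RPLP2, recruits the factors that drive translation. RPLP0 (ENSG00000089157.16, GRCh38, chromosome 12, 120196686 to 120201235) had 1454 and 2242 CPM in hypoxic A2058, against 814 and 850 CPM in normoxic A2058. In A375 it had 4683 and 2331 CPM in hypoxia, against 1872 and 1437 CPM in normoxia, and in SKMEL-5 3250 and 2494 CPM in hypoxia, against 1840 and 1814 CPM in normoxia. Its hypoxic libraries were above the normoxic ones in every line, with a 3-line mean change of 0.96 ± 0.26 (SE) on the log2 scale (edgeR adjusted p = 0.10). RPLP1 had 1647 and 2668 CPM in hypoxic A2058, against 1439 and 941 CPM in normoxic A2058, and its 3-line mean change was 0.76 ± 0.26 (adjusted p = 0.17). RPLP2 stood at 0.51 ± 0.30 (adjusted p = 0.37), and in SKMEL-5 its 767 and 595 CPM in hypoxia overlapped the 862 and 503 CPM in normoxia.

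RPL5 and RPL11 travel with the 5S ribosomal RNA into the large subunit, and the same complex binds the p53 ligase MDM2 when ribosome assembly is disturbed. RPL5 had 786 and 1315 CPM in hypoxic A2058, against 742 and 431 CPM in normoxic A2058, and 892 and 621 CPM in hypoxic A375, against 441 and 391 CPM in normoxic A375. In SKMEL-5 it overlapped, with 631 and 709 CPM in hypoxia, against 726 and 536 CPM in normoxia. Its 3-line mean change was 0.60 ± 0.24 (edgeR adjusted p = 0.22). RPL11 stood at 0.63 ± 0.32 (adjusted p = 0.31), close to RPL5.

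Among the other large-subunit genes, the highest values belonged to proteins of different places in the subunit. RPL12, at the base of the stalk, had the highest 3-line mean of all members, 1.13 ± 0.34 (edgeR adjusted p = 0.13; ENSG00000197958.13, chromosome 9, 127447674 to 127451405). It had 868 and 1607 CPM in hypoxic A2058, against 897 and 544 CPM in normoxic A2058, and 4580 and 1449 CPM in hypoxic A375, against 1007 and 800 CPM in normoxic A375. In SKMEL-5 it had 3207 and 1838 CPM in hypoxia, against 1637 and 1136 CPM in normoxia. The libraries overlapped in A2058 alone, and the highest value in A375 and in SKMEL-5 was that of the distant library.

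RPL13A, a surface subunit that also acts in a translation-silencing complex, stood at 0.98 ± 0.31 (edgeR adjusted p = 0.14). It had 1573 and 2838 CPM in hypoxic A2058, against 1343 and 721 CPM in normoxic A2058, and 5054 and 2396 CPM in hypoxic A375, against 1816 and 1135 CPM in normoxic A375. In SKMEL-5 it had 3326 and 2628 CPM in hypoxia, against 2523 and 1670 CPM in normoxia, so its groups did not overlap in any line. RPL3, which reaches towards the peptidyl transferase centre, stood at 0.90 ± 0.34 (adjusted p = 0.20), RPL36 at 0.85 ± 0.35 (adjusted p = 0.22) and RPL30 at 0.85 ± 0.26 (adjusted p = 0.13). RPL10, which joins the subunit late, stood at 0.77 ± 0.31 (adjusted p = 0.22), and RPL7, the partner of RPL7L1, at 0.50 ± 0.26 (adjusted p = 0.31). RPL41, the shortest member with 75 coding bases, stood at 0.75 ± 0.25 (adjusted p = 0.17), and RPL39, of the peptide exit tunnel, at 0.30 ± 0.32 (adjusted p = 0.63). Of the 46 large-subunit genes without paralogs 45 were above 0 in the 3-line mean, with a median of 0.65.

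The small subunit had a median of 0.56, with 29 of 31 genes above 0. RPS6, the subunit that S6 kinases phosphorylate downstream of mTORC1, had 1443 and 2613 CPM in hypoxic A2058, against 1416 and 694 CPM in normoxic A2058. It had 4757 and 3023 CPM in hypoxic A375, against 1988 and 1336 CPM in normoxic A375, and 3282 and 3711 CPM in hypoxic SKMEL-5, against 4662 and 2357 CPM in normoxic SKMEL-5. Both hypoxic libraries were above both normoxic ones in A2058 and A375, whereas in SKMEL-5 they lay between them, and the 3-line mean was 0.72 ± 0.31 (edgeR adjusted p = 0.24). RPSA, which sits near the exit site of the message and is also known as a laminin receptor, stood at 0.72 ± 0.25 (adjusted p = 0.17). RPS27, a zinc-finger subunit, stood at 0.78 ± 0.32 (adjusted p = 0.22) and RPS4X at 0.66 ± 0.30 (adjusted p = 0.26). In SKMEL-5 the median was -0.09 for the small subunit and 0.15 for the large subunit, while in A375 they were 1.11 and 1.10 and in A2058 0.62 and 0.65.

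RPS26, which lines the exit channel of the message, did not go with the other small-subunit genes. It had 195 and 270 CPM in hypoxic A2058, against 303 and 180 CPM in normoxic A2058, and 185 and 205 CPM in hypoxic A375, against 188 and 190 CPM in normoxic A375. In SKMEL-5 it had 124 and 190 CPM in hypoxia, against 454 and 302 CPM in normoxia, a change of -1.26 ± 0.40 (edgeR adjusted p = 0.73). The groups overlapped in A2058 and A375 and were apart in SKMEL-5, and the 3-line mean was -0.43 ± 0.23 (adjusted p = 0.33).

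RPL36A had the lowest value in the 3-line mean, -0.72 ± 0.33 (edgeR adjusted p = 0.27; ENSG00000241343.10, chromosome X, 101390824 to 101396154). It had 2.29 and 1.64 CPM in hypoxic A2058, against 7.10 and 6.61 CPM in normoxic A2058, a change of -1.80 ± 0.59 (adjusted p = 0.37). In A375 it had 9.25 and 2.43 CPM in hypoxia, against 8.55 and 8.52 CPM in normoxia, and in SKMEL-5 4.62 and 3.90 CPM in hypoxia, against 3.65 and 3.89 CPM in normoxia. The A2058 groups were far apart, the A375 groups overlapped and the SKMEL-5 groups were separated by a hair in the other direction. RPS10 stood at 0.12 ± 0.47 (adjusted p = 0.93). RPS10 in A375 had 9.67 and 1.07 CPM in hypoxia, against 1.59 and 1.80 CPM in normoxia, so that its A375 value of 1.66 ± 0.83 (adjusted p = 0.84) rested on hypoxia 1.

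RPL36A and RPS10 belong to 7 members that share at least 50% of their coding bases, on the same strand, with an exon of another annotated gene. RPL17, RPL22, RPL26 and RPS15A are others, and 3 of the 7 overlapping genes are named read-through genes: RPL17-C18orf32, RPL36A-HNRNPH2 and RPS10-NUDT3. Their levels per kilobase (kb) of coding sequence ran from 5.41 (RPS10) to 318 CPM per kb (RPS15A), with a median of 47.7. The 70 other subunits ran from 109 (RPL39) to 10157 CPM per kb (RPL41), with a median of 1944. After RPL41 the highest were RPLP1 (7042), RPS27 (4596), RPL28 (4082) and RPL13A (3698). The overlapping genes themselves were at 0 to 0.00656 CPM. The handling of reads that fall in more than 1 gene is not given in the sources used here, and its part in these low levels was not tested.

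The 7 overlapping members had a 3-line mean median of 0.28, with 5 above 0. The highest was RPL22, an RNA-binding subunit mutated or lost in some tumours, at 0.74 ± 0.27 (edgeR adjusted p = 0.19), and RPL26, which also binds p53 mRNA, stood at 0.41 ± 0.26 (adjusted p = 0.41). RPL22 had 64.6 and 107 CPM in hypoxic A2058, against 61.8 and 43.5 CPM in normoxic A2058, and its hypoxic libraries were above the normoxic ones there and in A375. Annotated pseudogenes of 78 members, 1604 in all, took 0.031 to 0.084% of counts per library. Pseudogenes drew more than 5% of their parent's counts for 5 members, RPS10 (159%), RPL36A (70.2%), RPL17 (16.9%), RPS2 (9.83%) and RPL39 (7.33%), and for these the counting could have split reads.

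**Figure D4:**
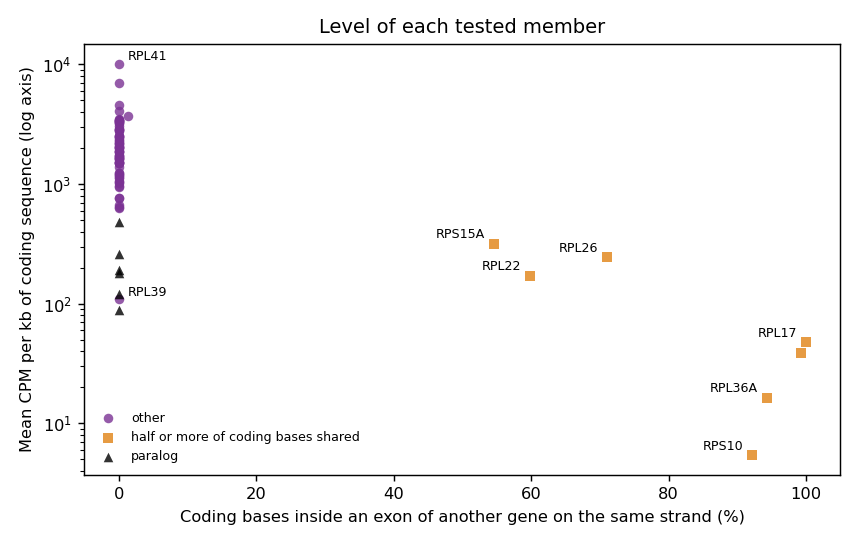
Mean CPM per kb of coding sequence (log axis) of each tested member against the share of its coding bases inside an exon of another gene on the same strand (%), with paralogs as triangles. The 7 members at 50% or more (orange) lie between 5.41 and 318 CPM per kb, and all but 1 of the other subunits, RPL39 at 109, lie above that range.

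The 6 tested paralogs had a 3-line mean median of 0.08, with 3 above 0 and 0 called by edgeR, DESeq2 or limma-voom (0 at an unadjusted edgeR p under 0.05). RPL7L1, related to RPL7, had 161 and 92.5 CPM in hypoxic A2058, against 131 and 162 CPM in normoxic A2058, and 46.8 and 163 CPM in hypoxic A375, against 142 and 178 CPM in normoxic A375. In SKMEL-5 it had 67.2 and 140 CPM in hypoxia, against 149 and 216 CPM in normoxia. Its lowest library in each line was the distant one, where its partner RPL7 was highest in A2058 and A375. The ratio of RPL7L1 to RPL7 CPM ran from 0.0316 (A375 hypoxia 1) to 0.316 (A375 normoxia 2), and the 3-line mean of RPL7L1 was -0.54 ± 0.33 (edgeR adjusted p = 0.38).

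RPL22L1, which can replace RPL22, stood at 0.21 ± 0.35 (edgeR adjusted p = 0.78). Its ratio to RPL22, on CPM and not per length, was 0.416 in SKMEL-5 hypoxia 1 and 2.61 in SKMEL-5 hypoxia 2, the extremes of the 12 libraries, so that replicates of 1 group spanned the range. RPS27L, a p53 target related to RPS27, stood at -0.04 ± 0.28 (adjusted p = 0.97), and its sign changed in other fits. It had 61.2 and 86.5 CPM in hypoxic SKMEL-5, against 182 and 83.4 CPM in normoxic SKMEL-5, and 89.7 and 65.1 CPM in hypoxic A375, against 60.1 and 36.1 CPM in normoxic A375. RPL26L1 stood at -0.17 ± 0.26 (adjusted p = 0.75), RPL39L at 0.30 ± 0.19 (adjusted p = 0.41) and RPL36AL at 0.33 ± 0.26 (adjusted p = 0.51). RPL36AL outnumbered RPL36A, which has the same coding length, by 10.2 to 102 in CPM ratio over the libraries. RPL36A and RPL22, however, share 94.3% and 59.9% of their coding bases with another gene. The part of this overlap in the ratios to RPL36A and RPL22 was not tested.

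Other gene groups place these values. In the 3-line mean 51.0% of all tested genes were above 0. EdgeR called 1.12% of them and gave 19.0% an unadjusted p under 0.05. Of ribosomal proteins outside the symbol rule, the scaffold RACK1 stood at 0.78 ± 0.31 in the 3-line mean (edgeR adjusted p = 0.22) and FAU, made as a fusion with a ubiquitin-like protein, at 0.11 ± 0.24 (adjusted p = 0.86). Of 30 other tested TOP messages all 30 were above 0, with a median of 0.76, and edgeR called 0, or 16 at an unadjusted p under 0.05. Among them the snoRNA host genes SNHG5 and GAS5 stood at 1.19 ± 0.29 (adjusted p = 0.081) and 1.57 ± 0.48 (adjusted p = 0.13), and the elongation factor genes EEF1A1 and EEF2 at 1.06 ± 0.33 (adjusted p = 0.14) and 1.06 ± 0.35 (adjusted p = 0.15). GAS5 had 1629 and 204 CPM in hypoxic A375, against 216 and 138 CPM in normoxic A375. In SKMEL-5 it had 1039 and 335.7 CPM in hypoxia, against 336.3 and 169 CPM in normoxia. The groups overlapped in both, and only the distant library stood above both normoxic ones. In A2058 GAS5 had 173 and 344 CPM in hypoxia, against 162 and 115 CPM in normoxia, without overlap. EEF1A1, EEF2 and GAS5 were picked after their values were seen.

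Lists of genes that build ribosomes had medians below 0 in the 3-line mean, and edgeR called 0 of their genes. Counts of each list stand beside 51.0% of all genes above 0 and 19.0% at an unadjusted edgeR p under 0.05. Of 73 tested genes of ribosome assembly and ribosomal RNA processing 12 were above 0, with a median of -0.40, 0 called and 25 at an unadjusted edgeR p under 0.05. RRP9, which binds the U3 snoRNA, had 19.0 and 8.13 CPM in hypoxic A2058, against 33.4 and 42.3 CPM in normoxic A2058, and its 3-line mean was -1.07 ± 0.24 (edgeR adjusted p = 0.064). Of 20 genes of RNA polymerase I and its factors 7 were above 0, with a median of -0.24, 0 called and 6 at an unadjusted p under 0.05, and TAF1C of its initiation factor stood at -0.90 ± 0.21 (adjusted p = 0.068). In A375 10 of these 20 were above 0, against 50.6% of all genes. The 77 tested mitochondrial ribosomal protein genes had a median of -0.21, with 17 above 0, 0 called, 10 at an unadjusted p under 0.05 and MRPS25 at -0.79 ± 0.19 (adjusted p = 0.076). The 65 nuclear respiratory chain genes, picked as short housekeeping messages, had a median of -0.10, with 27 above 0. Of them 0 were called, 4 had an unadjusted p under 0.05, and NDUFS6 stood at -0.69 ± 0.19 (adjusted p = 0.11). Their median log2 CPM was below that of the ribosomal protein genes in every library, with 6.91 against 9.23 in A2058 normoxia 1. They are therefore not matched to those genes in level. In A375 the mitochondrial ribosomal protein genes and the respiratory chain genes had medians of 0.16 and 0.34, in SKMEL-5 -0.58 and -0.60. No test compared these groups with the ribosomal protein genes.

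**Figure D5:**
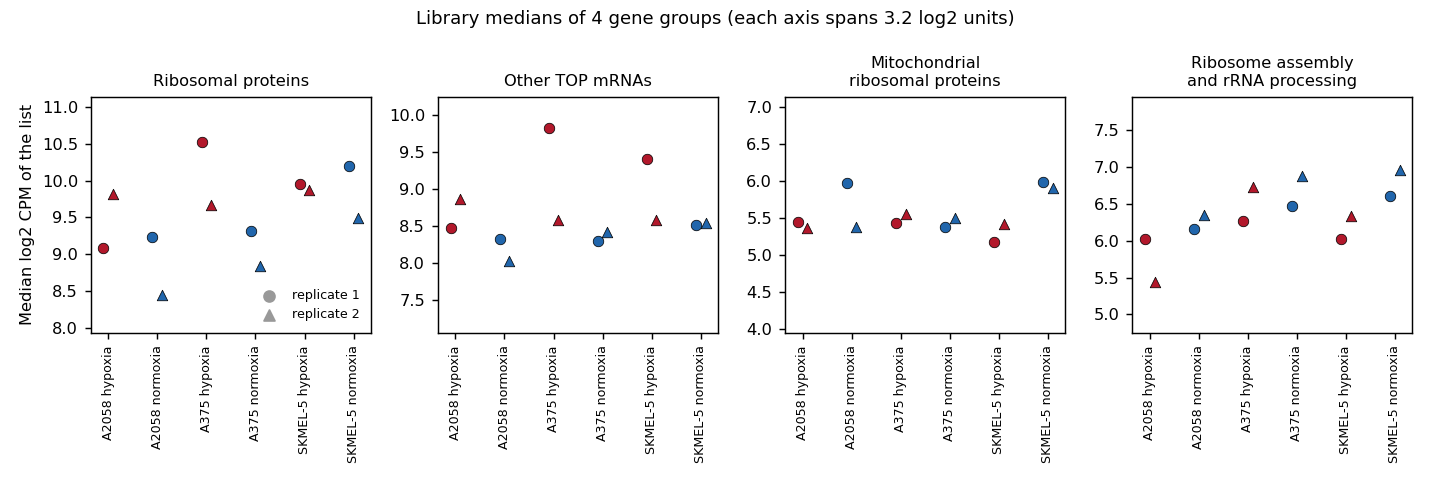
Median log2 CPM per library of the ribosomal protein genes, other TOP messages, mitochondrial ribosomal protein genes and genes of ribosome assembly and rRNA processing, with hypoxia (red) left of normoxia (blue) in each line, circles for replicate 1 and triangles for replicate 2. Each vertical axis spans the same log2 range. A375 hypoxia 1 is the highest library for the ribosomal protein genes (10.5) and for other TOP messages (9.83), and A2058 hypoxia 2 is the lowest for assembly genes (5.44).

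Factors that act on translation gave a mixed picture. The shares of all genes were again 51.0% above 0, 1.12% called and 19.0% at an unadjusted edgeR p under 0.05. Of 25 initiation and elongation factor genes 11 were above 0, with a median of -0.17, 0 called, 7 at an unadjusted p under 0.05 and the initiation factor EIF5B at -0.58 ± 0.19 (edgeR adjusted p = 0.15). Of 32 genes of mTORC1 and of the control of TOP messages 1 was called, DDIT4, which encodes REDD1, an mTORC1 inhibitor induced by low oxygen. DDIT4 had 859 and 957 CPM in hypoxic A2058, against 405 and 213 CPM in normoxic A2058, 1072 and 637 CPM in hypoxic A375, against 213 and 217 CPM in normoxic A375, and 711 and 719 CPM in hypoxic SKMEL-5, against 347 and 210 CPM in normoxic SKMEL-5. It rose by 1.64 ± 0.25 on the log2 scale (edgeR adjusted p = 0.016), and its groups did not overlap in any line. The list median was 0.04, with 17 of 32 above 0.

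A2058 carried less ribosomal protein RNA than the libraries labelled A375 and SKMEL-5, averaged over both conditions, but with the low-count filter a smaller share of members passed than of genes at large. In A2058 minus the mean of the other lines, 13 members passed in edgeR's quasi-likelihood test (15.7%), against 33.7% of all genes. There was 1 higher in A2058, against 17.2% of all genes, and 12 were lower, against 16.5%. The member median was -0.53 on the log2 scale, against -0.05 over all genes, with 14 of 83 above 0, where 47.7% of all genes were. No member had all 4 A2058 libraries below, or above, all 8 others, where 11.9% and 10.6% of genes did.

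The lower members included the paralog RPS27L, large-subunit genes RPL10, RPL39, RPL23A, RPLP0 and RPL6, and small-subunit genes RPSA, RPS6, RPS4X, RPS27A and RPS23. RPSA had 498 and 819 CPM in hypoxic and 371 and 346 CPM in normoxic A2058, against 2026, 1048, 842 and 755 CPM in A375 and 1296, 996, 793 and 1030 CPM in SKMEL-5, hypoxic libraries first. The difference was -1.13 ± 0.28 (edgeR adjusted p = 0.0086), and A2058 hypoxia 2 overlapped the normoxic libraries of the others. RPS27L had 31.0 and 32.5 CPM in hypoxic and 42.5 and 19.6 CPM in normoxic A2058, and 36.1 to 182 CPM in the 8 other libraries, a difference of -1.31 ± 0.31 (adjusted p = 0.0077). RPLP0 had a difference of -0.92 ± 0.28 (adjusted p = 0.028).

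RPL39L, a paralog of RPL39 that is best known from testis, was the higher member. It had 24.4 and 31.6 CPM in hypoxic and 23.8 and 18.9 CPM in normoxic A2058, and 12.5 to 19.9 CPM in the 8 other libraries, a difference of 0.68 ± 0.20 (edgeR adjusted p = 0.023). RPL39 itself was lower, with a difference of -1.07 ± 0.36 (adjusted p = 0.040), and had 8.46 and 11.4 CPM in hypoxic and 12.02 and 5.01 CPM in normoxic A2058. Both have the same coding length, and the ratio of RPL39L to RPL39 was 1.98 to 3.78 in the A2058 libraries and 0.504 to 1.24 in the others, without overlap. Both levels were low, at 121 and 109 CPM per kb. RPL5 (0.38 ± 0.25, adjusted p = 0.28) and RPL21 (0.35 ± 0.30, adjusted p = 0.41) had the next highest values.

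These calls depended on which libraries were used. Against A375 alone 4 members passed (27.6% of all genes) and against SKMEL-5 alone 8 (26.8% of all genes), all lower in A2058, while 0 passed in A375 minus SKMEL-5 (0 also at an unadjusted p under 0.05, against 1.78% of all genes). With the 3 distant libraries left out 2 passed (28.4% of genes), RPSA and RPS27L, although the median was still -0.53. The count was 3 without A2058 hypoxia 1 or without A375 normoxia 1, 4 without A2058 normoxia 2 and 5 without SKMEL-5 normoxia 1. It was 6 without A2058 hypoxia 2 or without A375 hypoxia 1, 7 without A375 normoxia 2 or without SKMEL-5 hypoxia 1, and 24 without A375 hypoxia 2. With 1 library left out, 24.0% to 35.2% of all genes were called. DESeq2 called 23 members (27.7%), against 38.4% of all genes, and limma-voom 18 (21.7%), against 33.5%, and both lists held all 13. Without the low-count filter the order of the shares turned, with 27 of 85 members (31.8%) passing, against 20.8% of genes.

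Across the 83 tested members the 3-line mean change was higher for members of higher level, with Spearman's rho of 0.62 to mean log2 CPM, and 0.47 over the 70 subunits that are neither paralogs nor overlapped. By line, rho over the 70 was 0.51 in SKMEL-5 but 0.26 in A2058 and 0.20 in A375. The 3-line mean change was weakly related to coding length (rho 0.24, and 0.21 over the 70) and to the number of snoRNA genes inside the gene (0.34 and 0.30). Members are not independent replicates, and they share libraries and depth, so these are descriptions. The spread of a member over the 12 libraries had a median SD of 0.64 on the log2 CPM scale, close to the 0.73 of all tested genes. Around the median of the members in the same library it was 0.28.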

How the data were processed

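The authors deposited raw counts per gene for all 12 libraries in 1 table, with no normalization. Per the labels' protocols, a NuGen Universal Plus mRNA kit was used on total RNA. STAR 2.5.0a, Trim Galore 0.6.1, bcl2fastq 2.20 and the GRCh38 build are listed in the submitters' processing notes. How reads were counted, with which strand setting and gene models, is not given in the sources used here. IDs were matched to symbols with the version ignored, and exons, coding lengths and pseudogenes were taken from GENCODE 29. Counts were fitted with edgeR 4.0.16 in R 4.3.3 (filterByExpr with minimum count 10, TMM, quasi-likelihood test, 1 mean per group, 6 residual and 5.02 prior degrees of freedom), with Benjamini-Hochberg adjustment over 19636 genes and called under 0.05. CPM are TMM-scaled, except those of cell type markers, which are of the library total, and log2 CPM used a prior count of 2. Standard errors are the absolute log2 change over the square root of F. The procedure was tested on simulated data with each gene drawn on its own, which does not cover members that move together. Alternatives used DESeq2 1.42.0, limma-voom (limma 3.58.1), other scalings, filters and libraries. Members to name were the P-stalk, the 5S complex, paralogs and their partners, well-known subunits, extremes of each comparison and of level, and short lists of calls. The members, lists and this rule were chosen with earlier results of these data known. Some members are not reported here by name.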

Additional observations from a re-analysis of the deposited data

Results flagged for a closer look

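RPL36A was the 1 member whose libraries were apart in opposite directions in different lines. Its hypoxic libraries were below the normoxic ones in A2058 (2.29 and 1.64 CPM in hypoxia, against 7.10 and 6.61 CPM in normoxia) and above them in SKMEL-5 (4.62 and 3.90 CPM in hypoxia, against 3.65 and 3.89 CPM in normoxia). The F test that its 3 changes are equal gave an edgeR adjusted p of 1. Its counts lie in a gene that shares 94.3% of its coding bases with the read-through gene RPL36A-HNRNPH2, and its annotated pseudogenes drew 70.2% as many counts; the part of either was not tested.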

How the results depend on the processing

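The number of members called in the 3-line mean was 0 in edgeR, 5 with DESeq2 and 12 without the low-count filter, and 0 to 3 with 1 library left out. The count in A375 was 1 without the filter (1.18% of members), near the 1.03% of all genes. In A2058 minus the other lines 13 became 22 with library totals, 23 with DESeq2, 27 without the filter, 2 without the 3 distant libraries, 4 against A375 alone, 8 against SKMEL-5 alone and 3 to 24 with 1 library left out. The member median of the 3-line mean was 0.40 to 0.76 with 1 library left out and 0.19 without the 3 distant ones. In single lines the counts of 0 can rise but cannot fall. EdgeR called only 0.0102% of all genes in A2058 and 0.0% in A375 and SKMEL-5, so these counts say little of stability. The 3-line mean changed sign for RPL26L1 (0.14 in A2058 and A375 alone), RPL36AL (-0.0637 without the 3 distant libraries) and RPS27L (0.0257 with limma-voom, 0.03 with the replicate block, 0.36 in A2058 and A375 alone, -0.19 to 0.19 with 1 library left out). With 1 library left out RPL22L1 ran from -0.15 to 0.49. The cause was not tested. Library totals moved the median of all genes by -0.16 in the 3-line mean and -0.28 in A375, and the member median to 0.40 and 0.73. With library totals the 22 members called in A2058 minus the other lines were 26.5%, against 31.7% of all genes. With a replicate block 0 members were called in the 3-line mean (0.463% of all genes) and 14 in A2058 minus the other lines (35.9% of all genes). Deviations of same-numbered libraries correlated at -0.30 for A2058, 0.23 for A375 and 0.26 for SKMEL-5. With 1 such value per line and mixed signs, whether the numbers pair the samples cannot be told. Depth did not limit these comparisons for most subunits. RPL3L and RPL10L, with 28 and 1 counts over the 12 libraries, were too low to compare, and the part of depth in this was not tested.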
